A study of Mus musculus with 10 samples.

Results

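The class II presentation genes H2-Aa, H2-Ab1, H2-Eb1, Cd74, H2-DMa, H2-DMb1, H2-DMb2, Ciita and Ctss were followed through crypts of the mouse jejunum with and without epithelial Arid3a. These 9 genes were taken by name from the 54838 genes of the deposited tables, and all 9 passed the filter on low counts. RNA was sequenced from crypts of 5 WT mice, for which the labels name no allele, and 5 Arid3a cKO mice, which carry VillinCre-ERT2 and floxed Arid3a alleles (Arid3a fl/fl), 1 library per animal. Both genotypes received tamoxifen by injection on 3 consecutive days, and tissue was taken 1 month after the first injection. The Villin promoter directs the recombinase to intestinal epithelial cells, so B cells, macrophages and other leukocytes of the cKO mice keep the gene. Arid3a itself, the check of the labels, fell by 1.84 on the log2 scale (SE 0.32, adjusted p = 0.00204), from 2.42 ± 0.40 to 0.673 ± 0.350 CPM (counts scaled to library size; SD, n = 5 each), without overlap. The expected counts summed to between 27050455 and 28152743 per WT library and between 28314069 and 31053622 per cKO library, so the depth ranges of the genotypes did not overlap. The animal identifiers in the labels carry one prefix in all WT mice and another in all cKO mice, so anything tied to that prefix cannot be told apart from genotype.

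MHC class II molecules show peptides from swallowed or endosomal proteins to CD4+ T cells. The α and β chains (H2-Aa with H2-Ab1, and H2-Eb1) are assembled on the invariant chain, Cd74, which cathepsin S, the product of Ctss, later trims to a short fragment that H2-DM exchanges for peptide. Ciita is the coactivator that binds no DNA itself and turns on the promoters of the chain, invariant chain and H2-DM genes. It acts through proteins sitting on the conserved X and Y boxes. On GRCm38 the chain and H2-DM genes sit together in the MHC on chromosome 17, from the start of H2-DMa at 34119541 to the end of H2-Eb1 at 34316674, while Ciita (chr16:10480059-10528418), Ctss (chr3:95526786-95556403) and Cd74 lie elsewhere. B cells, dendritic cells and many macrophages express the pathway constitutively, and intestinal epithelial cells can express it too, under interferon gamma. H2-DMb2 and the H2-O genes (H2-Oa, H2-Ob) are mainly known from B cells and, for H2-O, from some dendritic cells.

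The promoter stretches that carry these boxes are shown for 3 of the genes, because the proteins that recruit Ciita are known to bind the X and Y boxes. RefSeq windows on GRCm38 were at hand for 6 of the 9 genes, in 7 windows, and the 250 bases before each start were searched on both strands for ATTGG, the core of the Y box, and AACNGATG, the end of the X box of several class II genes. The second motif was written down after these windows had been read. Capitals mark both motifs, and each sequence runs in the direction of its gene:
H2-Aa: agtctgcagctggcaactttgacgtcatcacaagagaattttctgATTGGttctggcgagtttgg
H2-Eb1: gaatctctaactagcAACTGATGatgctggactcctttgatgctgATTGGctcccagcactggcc
H2-DMb2: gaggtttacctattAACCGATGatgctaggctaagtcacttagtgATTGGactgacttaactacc
The H2-Aa stretch is chr17:34287852-34287916 on the minus strand and lies outside every annotated transcript. The H2-Eb1 stretch is chr17:34305763-34305827 on the plus strand, inside a transcript of Gm20513 but in no exon. The H2-DMb2 stretch is chr17:34145114-34145178 on the plus strand, in an intron of a longer transcript of the same gene. ATTGG was present in 5 of the 7 windows and in 33.8% of all 32851 windows, so its letters alone are common. AACNGATG was present in 4 of the 7 windows and in 1.98% of all windows. The pair in this order on the gene's strand, with starts at most 45 bases apart, occurred in 8 windows of the whole table, 0.024%, and 4 of these belong to H2-Eb1, H2-Eb2, H2-DMb1 and H2-DMb2, with starts 30 or 31 bases apart. Of the other windows with the pair, that of BC051142 also had starts 31 bases apart. Those of G3bp2, Olfr1348 and Scgb2b20 had starts 12, 14 and 41 bases apart. The H2-DMb1 stretch, which reaches into an annotated exon and is not printed, and the H2-DMb2 stretch, aligned on ATTGG, shared 56 of 65 bases. The Ctss window held AACNGATG once, 207 bases before the start, and no ATTGG. Of these 2 motifs the H2-Aa window held only ATTGG. An X box spelled with other letters would be missed by this search, so the lack of AACNGATG does not mean that H2-Aa has no X box. A match is a description of letters and not of a bound factor.

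The libraries differed in what they held besides epithelium, and these values stand beside every result. Summed TPM (counts scaled to gene length and library size, a level per length) of 9 B cell markers was between 40.0 and 48.1 in WT animals 1, 3 and 4, 16.2 in WT animal 2 and 3.80 in WT animal 5. In cKO animals 1 to 4 it was between 2.72 and 8.61, and in cKO animal 5 it was 20.5. WT animal 5 therefore lay with the cKO animals in B cell transcripts, and cKO animal 5 lay nearer to the WT animals. Cd79a ranged from 14 to 389 expected counts, while Pax5, Fcer2a and Cr2 were at 0 in at least 1 library. Summed TPM of 7 pan-leukocyte markers ranged from 60.2 to 135 in WT and from 47.4 to 89.4 in cKO libraries, and that of 7 epithelial markers from 4421 to 5006 and from 4676 to 5507. Villus enterocyte markers summed to 880 to 4973 TPM in WT crypts and 5211 to 10360 TPM in the cKO crypts, without overlap, and 6 of these 8 genes passed the test as higher. In bulk RNA, fewer cells of a type and less RNA per cell cannot be told apart.

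Transcripts of the invariant chain and of the α chain were lower on average in Arid3a cKO crypts, and neither passed the threshold of an adjusted p of 0.05. Cd74 was 375, 268, 201, 204 and 351 CPM in WT animals 1 to 5 and 138, 49.8, 170, 175 and 164 CPM in cKO animals 1 to 5. Every cKO value lay below every WT value, by a margin that was small beside the range within either genotype. The means were 279.9 ± 80.8 and 139 ± 52.0 CPM (SD, n = 5), a log2 fold change of -1.01 (SE 0.34, adjusted p = 0.0510). Leaving out cKO animal 2, the lowest, brought Cd74 past the threshold, at -0.80 (SE 0.20, adjusted p = 0.0201).

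H2-Aa, the α chain of I-A, was 79.5, 49.9, 43.3, 51.3 and 59.1 CPM in WT animals 1 to 5 and 20.9, 14.9, 26.8, 42.8 and 51.1 CPM in cKO animals 1 to 5. The genotypes overlapped through cKO animal 5 alone, and its log2 fold change was -0.86 (SE 0.33, adjusted p = 0.0800). Without cKO animal 5 it was -1.11 (SE 0.31, adjusted p = 0.0355). H2-Eb1, the β chain of I-E, was 76.7, 54.6, 40.2, 45.2 and 70.9 CPM in WT and 23.8, 12.8, 33.9, 46.2 and 48.2 CPM in cKO animals, with a log2 fold change of -0.80 (SE 0.35, adjusted p = 0.117). Here cKO animals 4 and 5 reached into the WT range. H2-Ea-ps, the α chain gene that would pair with it, was listed at 0 in all 10 libraries.

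H2-Ab1, the β chain partner of H2-Aa, differed less. It was 94.2, 70.8, 45.2, 51.8 and 83.1 CPM in WT animals 1 to 5 and 45.9, 22.3, 51.0, 75.0 and 79.2 CPM in cKO animals 1 to 5. The ranges overlapped widely, and the log2 fold change of -0.34 (SE 0.34, adjusted p = 0.492) was no larger than its error.

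The H2-DM genes, which encode the peptide exchange factor, did not pass the test. H2-DMa had a median of 18.7 CPM in WT (12.8 to 21.97) and of 13.2 CPM in cKO crypts (5.49 to 15.1), with a log2 fold change of -0.50 (SE 0.26, adjusted p = 0.172). H2-DMb1 had a median of 12.5 CPM in WT (6.62 to 16.9) and of 8.22 CPM in cKO crypts (3.43 to 10.9), with a log2 fold change of -0.57 (SE 0.32, adjusted p = 0.212). Both overlapped between genotypes, and cKO animal 2 was the lowest library for each.

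H2-DMb2 showed the widest range of the 9 genes as a fold, 18.2 times from the lowest to the highest WT animal and 16.3 times in cKO animals. It was 6.51, 2.31, 6.24, 6.63 and 0.364 CPM in WT animals 1 to 5 and 0.202, 0.295, 0.385, 1.29 and 3.29 CPM in cKO animals 1 to 5. WT animal 5 lay among the lowest cKO animals and cKO animal 5 above WT animal 2. Its log2 fold change of -2.02 (SE 0.89, adjusted p = 0.121) was therefore the most negative of the group and also the least certain. The transcripts of H2-DMb1 and H2-DMb2 are 95.7% identical over 1081 aligned bases, and the estimation program divides reads that match both, so the counts of each are uncertain. Summed before the fit, the pair gave -0.85 (SE 0.29, adjusted p = 0.0525).

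Of the 9 genes, Ciita, the coactivator, alone was called lower. It was 14.6, 7.47, 9.20, 8.74 and 7.49 CPM in WT animals 1 to 5 and 4.45, 1.88, 6.22, 5.24 and 5.79 CPM in cKO animals 1 to 5, without overlap. The means of 9.50 ± 2.94 and 4.72 ± 1.72 CPM (SD, n = 5) gave a log2 fold change of -1.01 (SE 0.29, adjusted p = 0.0245). The call was lost without cKO animal 1 (-0.99, adjusted p = 0.0567).

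Ctss, encoding cathepsin S, moved the other way and rose. It was 64.1, 58.7, 51.1, 46.3 and 63.1 CPM in WT animals 1 to 5 and 85.1, 72.5, 75.4, 99.8 and 91.5 CPM in cKO animals 1 to 5. Every cKO value lay above every WT value, and the log2 fold change was 0.58 (SE 0.11, adjusted p = 0.00344). It remained called when any 1 animal was left out, with log2 fold changes between 0.52 and 0.64.

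**Figure D1:**
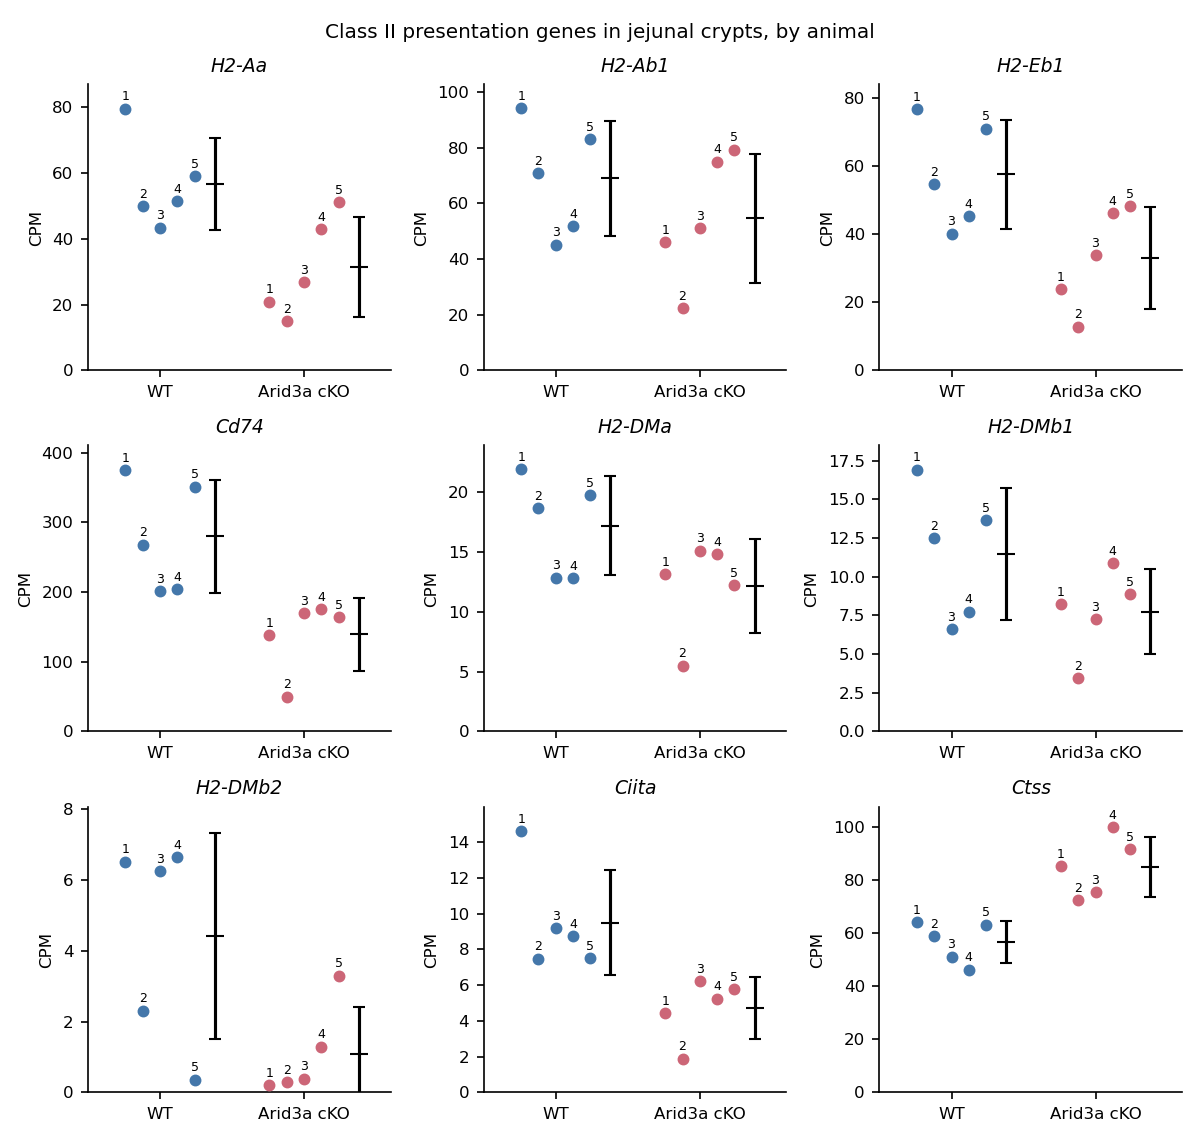
CPM of the 9 genes (vertical axes from 0, a scale of its own per gene) in each of 5 WT animals (blue) and 5 Arid3a cKO animals (red), numbered by replicate, with black bars for mean ± SD, cut at 0 for H2-DMb2 in cKO crypts. Cd74 and Ciita lie lower and Ctss higher in cKO crypts without overlap, cKO animal 2 is lowest for H2-Aa, H2-Ab1, H2-Eb1, Cd74, H2-DMa, H2-DMb1 and Ciita, and H2-DMb2 is near 0 in WT animal 5.

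In all, 8 of the 9 genes had a negative log2 fold change and 1 a positive one, with a median of -0.80 against -0.03 over the 14719 genes tested. Of the 9, 1 was called lower, where 12.7% of all genes tested were called lower, and 1 was called higher, where 15.6% of all genes were. Cd74 and Ciita were the 2 genes lower without overlap, against 7.63% of all genes, and Ctss the 1 gene higher without overlap, against 12.0% of all genes. The counts of called genes are thus close to those of the background.

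TPM, which allows levels of different genes to be set side by side, gave the order of the pathway. In WT crypts Cd74 was highest at 312 ± 85.6 TPM, with every animal above every value of the other 8 genes. H2-Ab1 (80.9 ± 23.4), H2-Aa (72.5 ± 18.9), H2-Eb1 (68.1 ± 17.9) and Ctss (58.0 ± 6.57) followed and overlapped one another. H2-DMa (20.7 ± 4.20), H2-DMb1 (11.4 ± 4.22), H2-DMb2 (4.74 ± 3.11) and Ciita (2.41 ± 1.02) came last, each overlapping its neighbour. In cKO crypts Cd74 had the highest mean at 147 ± 56.9 TPM, and Ctss at 81.8 ± 13.7 TPM came second, ahead of H2-Ab1 (60.3 ± 26.4), H2-Aa (37.4 ± 18.3) and H2-Eb1 (36.9 ± 17.2). With cKO animal 2 at 50.5 TPM of Cd74, the ranges of Cd74 and Ctss overlapped there.

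On TPM, 2-sided exact permutation tests of log2(TPM + 0.1) for each gene gave p = 0.00794 for Cd74, H2-DMa and Ciita, the smallest that all assignments of 5 against 5 can give. H2-Aa and Ctss gave p = 0.0159 by the same exact test, H2-Eb1 gave 0.0317, H2-DMb2 0.0714, H2-DMb1 0.103 and H2-Ab1 0.206. These p-values are single tests, unadjusted, on values whose median over all genes lies 0.12 log2 units lower in cKO libraries. On this scale H2-DMa no longer overlapped between genotypes (16.8 to 27.6 TPM in WT and 5.56 to 16.5 TPM in cKO crypts), and Ctss overlapped through cKO animal 2 at 67.1 TPM and WT animal 1 at 68.1 TPM.

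The members differed by degrees in how they followed B cell transcripts from animal to animal, with H2-DMb2 at one end. H2-DMb2 was 6.77, 6.84 and 7.25 TPM in WT animals 1, 3 and 4, 3.12 TPM in cKO animal 5, 2.43 TPM in WT animal 2 and between 0.19 and 1.31 TPM in the other 5 animals, the same order of groups as in the B cell markers above. Across the 10 libraries, with each genotype centred on its own mean of log2 CPM, H2-DMb2 had a Pearson correlation of 0.99 with Cd79a, a signalling chain of the B cell receptor. With the same gene, H2-Aa had a correlation of 0.49, Ciita of 0.47, H2-Eb1 of 0.25, H2-Ab1 of 0.21, Cd74 of 0.05, H2-DMb1 of 0.02, Ctss of -0.02 and H2-DMa of -0.04. These correlations share the same 10 libraries and their composition and are descriptions only. WT animal 5 shows the 2 ends in single values, with 18 expected counts of Cd79a and 10.4 of H2-DMb2 beside 9661 of Cd74 and 2284 of H2-Ab1. WT animal 3, with 359 counts of Cd79a, had 5934 of Cd74 and 1331 of H2-Ab1. WT animal 1, with 364 counts of Cd79a, had 10759 of Cd74 and 2705 of H2-Ab1, both above WT animal 5. Though poor in B cell transcripts, WT animal 5 was not poor in those of macrophages. Its mean log2 CPM of the macrophage markers was 2.64, the highest in WT, beside 1.54 to 2.51 in the other WT animals.

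The other class II genes, H2-Oa, H2-Ob and H2-Eb2, were ordered across the animals much as H2-DMb2 was. H2-Ob, a chain of the H2-O inhibitor of H2-DM, was 187, 72, 153, 177 and 5 expected counts in WT animals 1 to 5 and 3, 4, 5, 27 and 130 in cKO animals 1 to 5. H2-Oa ranged from 4 to 61 counts in WT animals and from 0 to 29 counts in the cKO animals, and H2-Eb2 from 3 to 87 and from 1 to 43. The 3 genes had log2 fold changes of -1.67, -1.71 and -1.89, and none passed the test (adjusted p = 0.178, 0.282 and 0.162).

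**Figure D2:**
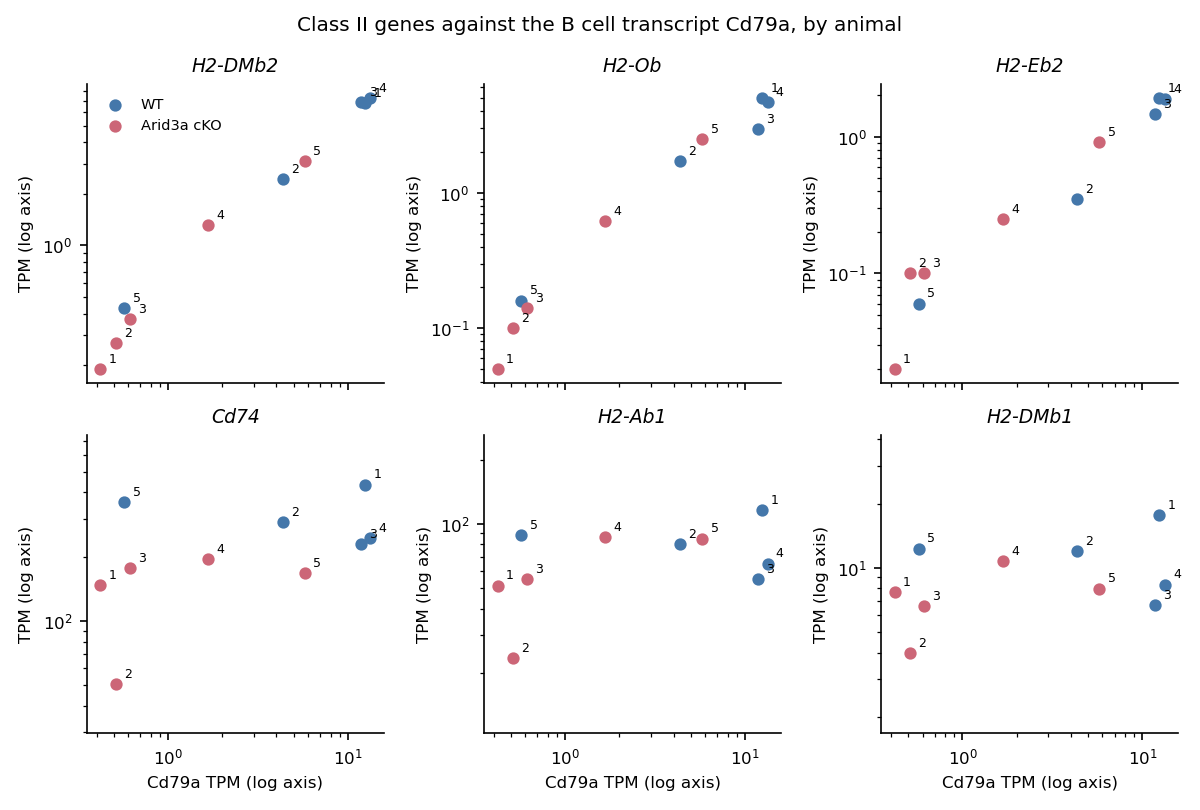
TPM of 6 class II genes (vertical log axes) against TPM of Cd79a (horizontal log axis) in 5 WT animals (blue) and 5 Arid3a cKO animals (red), numbered by replicate. H2-DMb2, H2-Ob and H2-Eb2 rise along with Cd79a from 0.42 to 13.3 TPM, while Cd74, H2-Ab1 and H2-DMb1 in WT animal 5, with 0.57 TPM of Cd79a, are at the level of animals with far more.

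A B cell score (mean log2 CPM of the B cell markers) added to the fit moved H2-DMb2 from -2.02 to -0.44 (SE 0.22, adjusted p = 0.152) and H2-Aa from -0.86 to -0.68 (adjusted p = 0.153), and left Cd74 at -0.99 (SE 0.39, adjusted p = 0.101). With the pan-leukocyte score Cd74 was at -0.89 (adjusted p = 0.125), H2-Aa at -0.56 (adjusted p = 0.159) and Ciita at -0.72 (adjusted p = 0.114), so the call of Ciita was lost. Ciita was not called with the B cell score (-0.76, adjusted p = 0.0905) or the macrophage score (-0.89, adjusted p = 0.132) either. Ctss was called with each, at 0.67, 0.58 and 0.72. Leaving out the 4 animals with the most B cell transcripts (WT animals 1, 3 and 4 and cKO animal 5) left 2 WT and 4 cKO animals. None of the 9 genes was called then, with Cd74 at -1.21 (SE 0.49, adjusted p = 0.172), Ciita at -0.75 (SE 0.40, adjusted p = 0.259) and Ctss at 0.45 (SE 0.13, adjusted p = 0.0678). Calls fell over all genes too, to 486 lower and 849 higher of 15259, from 1869 and 2298 of 14719 with genotype alone. They were 2038 and 2202 with the pan-leukocyte score, 1693 and 2081 with the B cell score and 1055 and 1611 with the macrophage score. All these scores are measured on the same libraries as the genes and differ in mean between the genotypes.

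**Figure D3:**
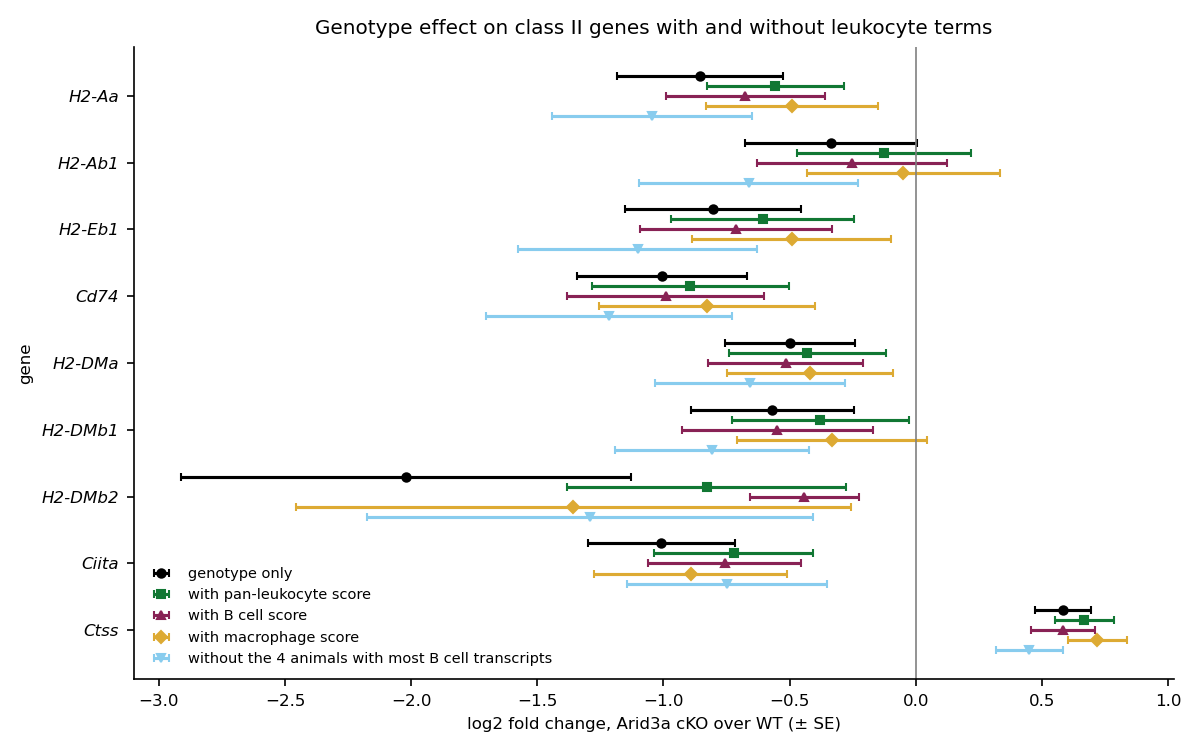
Log2 fold change of each gene in Arid3a cKO over WT crypts (horizontal axis, points, with bars for ± SE) from the fit with genotype alone (black), with a pan-leukocyte, B cell or macrophage score as a further term, and without the 4 animals with most B cell transcripts. Cd74 stays between -1.21 and -0.83 in these 5 fits, H2-DMb2 moves from -2.02 to -0.44 with the B cell score, and Ctss is above 0 in all of them.

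The genes were also set against each other within each animal. Some ratios varied less between animals than either gene, such as H2-Eb1 per H2-Ab1 (SD of log2 0.08 in WT and 0.13 in cKO animals), and others varied more, such as H2-DMb1 per H2-DMb2 (2.08 and 1.48). H2-Aa per H2-Ab1 was 0.844, 0.705, 0.959, 0.992 and 0.711 in WT animals 1 to 5 and 0.455, 0.669, 0.525, 0.571 and 0.645 in cKO animals 1 to 5 (ratio of expected counts). H2-Eb1 per H2-Ab1 ranged from 0.771 to 0.890 in WT animals and from 0.517 to 0.665 in the cKO animals. Cd74 per H2-Ab1 ranged from 3.78 to 4.46 in WT animals and from 2.07 to 3.33 in the cKO animals. All 3 ratios were lower in every cKO animal than in any WT animal, so cKO crypts held more H2-Ab1 RNA relative to its partner chain, the I-E β chain and the invariant chain. Of the 36 ratios among the 9 genes, 11 differed with an adjusted p = 0.0260, each by a 2-sided exact permutation test with p = 0.00794, the smallest possible. These 11 were the 3 above, Cd74 per H2-DMa (14.3 to 17.8 in WT, 9.07 to 13.4 in cKO animals) and Ctss against each of H2-Aa, H2-Ab1, H2-Eb1, Cd74, H2-DMa, H2-DMb1 and Ciita. Dividing by effective length gave the same count of 11. H2-Aa per H2-Eb1 (exact p = 0.667), H2-DMa per H2-DMb1 (exact p = 0.825) and Cd74 per Ciita (exact p = 0.968) did not differ beyond the spread between animals, at log2 differences of -0.06, 0.03 and -0.01. These ratios were chosen after the values had been seen, and those that share a gene are not separate results. The ratios with Ctss set its rise against genes with negative log2 fold changes.

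**Figure D4:**
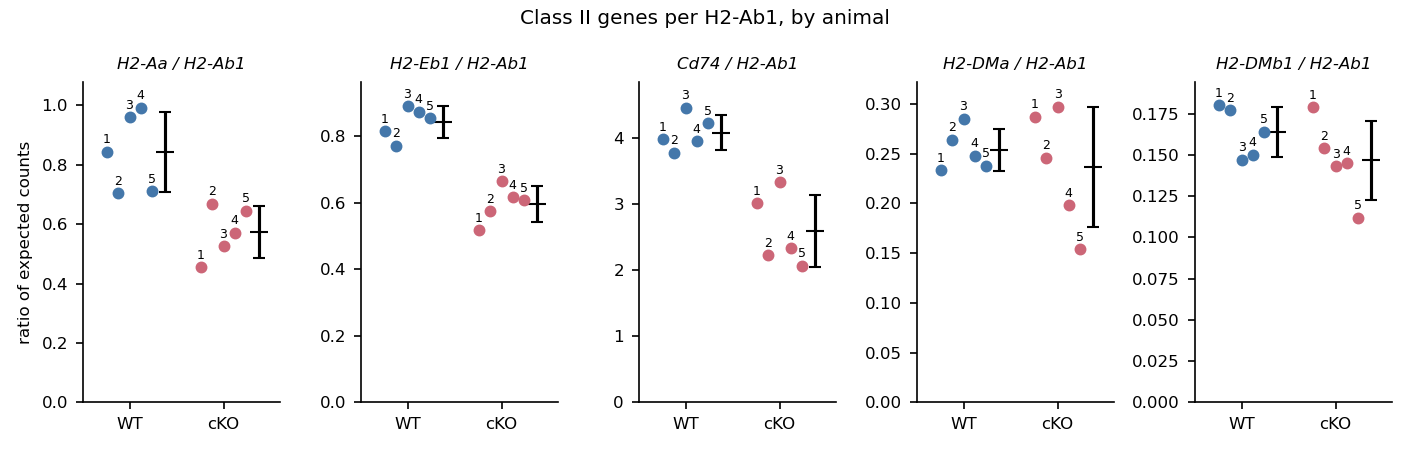
Ratio of expected counts of 5 class II genes to H2-Ab1 (vertical axes from 0, a scale of its own per gene) in each of 5 WT animals (blue) and 5 Arid3a cKO animals (red), numbered by replicate, with black bars for mean ± SD. H2-Aa, H2-Eb1 and Cd74 per H2-Ab1 are lower in all cKO animals, while H2-DMa and H2-DMb1 per H2-Ab1 overlap between the genotypes.

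Apart from Ctss in WT crypts, class II RNA differed between animals of 1 genotype well beyond the median of genes of like abundance. The coefficient of variation of Cd74 was 28.9% in WT and 37.3% in cKO crypts, where the medians over the genes of similar mean CPM were 10.4% and 6.18%. That of H2-Ab1 was 29.9% and 42.4%, beside medians of 10.3% and 6.40%. The highest cKO animal had 3.55 times the H2-Ab1 and 3.51 times the Cd74 of the lowest, and the highest WT animal 2.08 and 1.86 times that of the lowest. Ctss was the steadiest member, with 13.7% and 13.3% beside medians of 10.5% and 6.21%. Its highest value was 1.39 and 1.38 times the lowest.

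The chain, invariant chain, H2-DMa, H2-DMb1 and Ciita transcripts had positive correlations with each other from animal to animal, from 0.68 to 0.98. With genotypes centred, the Pearson correlation over the 10 libraries was 0.98 for H2-Ab1 with H2-Eb1, 0.98 for Cd74 with H2-DMa, 0.93 for Cd74 with H2-DMb1, 0.84 for Cd74 with Ciita, 0.79 for Cd74 with H2-Aa, 0.69 for Ciita with H2-DMb1, 0.68 for H2-Aa with H2-DMa and 0.09 for Cd74 with H2-DMb2. Ctss had correlations of 0.95 with Cd8a and 0.91 with Gzma, genes of cytotoxic intraepithelial lymphocytes, of 0.81 with Itgax, of 0.79 with Irf1, of 0.73 with the enterocyte genes Apoa1 and Krt20, of 0.72 with Cd74 and of 0.55 with Epcam. With Cd8a, H2-DMb1 was at 0.79, H2-Ab1 at 0.71, H2-Eb1 and H2-DMa at 0.61, Cd74 at 0.59, H2-Aa at 0.56, Ciita at 0.30 and H2-DMb2 at -0.03. With Irf1, H2-DMb1 was at 0.82, H2-DMa at 0.77, Cd74 at 0.72, H2-Ab1 at 0.67, H2-Eb1 at 0.56, Ciita at 0.40, H2-Aa at 0.39 and H2-DMb2 at -0.30. Cd8a itself averaged 15.5 ± 7.61 CPM in WT crypts and 18.9 ± 6.70 CPM in the cKO crypts (adjusted p = 0.615), while Apoa1 and Krt20 rose by 1.85 and 1.47 on the log2 scale (adjusted p = 0.0296 and 0.0236). Their part in the rise of Ctss was not tested. Among all tested genes outside the 9, those most like the centred mean of H2-Aa, H2-Ab1, H2-Eb1 and Cd74 were Gin1 (0.94), Capn3 (0.93), Gm35339 (0.92), Apol7b (0.92), St3gal2 (0.91), Gm20342 (0.91), Epb41l4a (0.90) and Carmil2 (0.89). Apart from Gin1, with a mean of 7.56 CPM in WT crypts, these had means of at most 2.46 CPM in either genotype, and a correlation of such low counts over 10 libraries is a weak description.

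Per leukocyte transcript, class II RNA overlapped between the genotypes. Cd74 per Ptprc, the CD45 gene carried by leukocytes, was 10.3, 12.5, 9.14, 10.1 and 23.3 in WT animals 1 to 5 and 8.24, 4.24, 16.8, 6.34 and 6.38 in cKO animals 1 to 5 (ratio of expected counts). WT animal 5 and cKO animal 3, each with the lowest pan-leukocyte sum of its genotype, stood highest. H2-Ab1 per Ptprc ranged from 2.05 to 5.52 in WT animals and from 1.90 to 5.03 in the cKO animals.

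Most markers of professional antigen-presenting cells had negative log2 fold changes, and few passed the test. All 9 B cell markers had negative log2 fold changes, with a median of -1.87, and 1, Cd79b, was called lower (-1.51, adjusted p = 0.0230). Of 10 macrophage markers, the complement genes C1qa, C1qb and C1qc fell by 1.28, 1.46 and 1.51 on the log2 scale and Mertk rose by 1.17. The other 6 macrophage markers, among them Csf1r at -1.03 (adjusted p = 0.0554), did not pass, and 9 of the 10 log2 fold changes were negative. The summed macrophage TPM overlapped, at 44.2 to 93.4 in WT and 27.0 to 137 in cKO crypts. That sum is weighted to Lyz2 and Mertk, at 78.0 and 33.1 TPM in cKO animal 4, which had the highest sum. The other macrophage markers had means of at most 8.35 TPM. Mertk also counts in the macrophage score. Only 3 of 9 dendritic cell markers were abundant enough to be tested, and Itgax (-0.76, adjusted p = 0.113), Zbtb46 (-0.94, adjusted p = 0.0711) and Siglech (-0.33, adjusted p = 0.521) did not pass. The defining dendritic cell genes Xcr1, Clec9a and Flt3 had mean levels of at most 0.330 CPM. Of 7 pan-leukocyte markers none was called, with a median log2 fold change of -0.54. The part of these cells in the class II values was not tested beyond the scores above.

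The T cell side of the pathway gave 1 call. Cd4, the coreceptor for class II, fell by 1.69 on the log2 scale (SE 0.41, adjusted p = 0.0110), from 1.92 ± 0.75 to 0.594 ± 0.349 CPM (SD, n = 5), while the other 9 T cell and intraepithelial lymphocyte markers did not pass, and the list's median was 0.14. Cd4 overlapped between the genotypes, at 0.758 to 2.80 CPM in WT and 0.272 to 1.10 CPM in cKO crypts. It rests on few reads too, 22 to 77 expected counts in WT and 8 to 29 in cKO animals. Among 4 costimulation genes tested of 5, Cd86, a ligand that antigen-presenting cells show to T cells, was called lower at -1.82 (SE 0.44, adjusted p = 0.0102). It went from 0.614 ± 0.116 to 0.173 ± 0.125 CPM, without overlap. These values rest on few reads, 18, 13, 19, 23 and 16 expected counts in WT and 2, 5, 1, 7 and 9 in cKO animals. On TPM Cd86 overlapped, at 0.23 to 0.51 in WT and 0.02 to 0.41 in cKO crypts. Cd40 was at -1.66 (adjusted p = 0.0626). Icosl and Cd274 were at -0.27 and -0.05 and did not pass.

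Upstream of Ciita, the interferon gamma receptor genes were higher in cKO crypts. Ifngr1 rose by 0.24 (SE 0.06, adjusted p = 0.0106), Ifngr2 by 0.58 (SE 0.10, adjusted p = 0.00164) and the receptor kinase gene Jak2 by 0.78 on the log2 scale (SE 0.10, adjusted p = 7.99e-04). Each rose without overlap between the genotypes. The targets Irf1 (0.20, adjusted p = 0.276) and Socs1 (-0.22, adjusted p = 0.693) did not pass, nor did Jak1 (0.06), and Ifng itself was below the filter with means of 0.021 CPM (WT) and 0.022 CPM (cKO). With library size alone in place of TMM, which moves the median of all genes from -0.03 to -0.16, Ifngr2 (0.46, adjusted p = 0.00340) and Jak2 (0.65, adjusted p = 0.00210) were called, and Ifngr1 was not (0.11, adjusted p = 0.123). On log2(TPM + 0.1), Ifngr1 was not called either (0.14, adjusted p = 0.0811).

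Of the 7 genes for the proteins that hold Ciita on the X and Y boxes, Nfya, a subunit of the CCAAT-binding factor NF-Y, was called lower at -0.29 (SE 0.08, adjusted p = 0.0147), from 71.7 ± 7.10 to 58.5 ± 3.46 CPM. Rfx5, Rfxap, Rfxank, Nfyb, Nfyc and Creb1 did not pass, with log2 fold changes between -0.11 and 0.32. Of 11 endolysosomal processing genes, Lgmn, an asparagine-specific protease, fell by 0.45 (adjusted p = 0.0111). Ctsb (0.22, adjusted p = 0.0370), the signal peptide peptidase Sppl2a (0.33, adjusted p = 0.00750), which clears the last membrane stub of Cd74, and the ubiquitin ligase March8 (0.55, adjusted p = 8.00e-04) rose. With library size alone Ctsb (0.10, adjusted p = 0.294) and Sppl2a (0.20, adjusted p = 0.0805) were not called, and March8 was (0.42, adjusted p = 0.00243). The related ligase March1, which removes class II from the surface of immune cells, was at -1.14 (adjusted p = 0.0571). Ifi30, Ctsd, Ctsh, Ctsl, Ctsz and Cst3 were between -0.02 and 0.20 and did not pass.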

How the data were processed

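Jejunal crypt RNA was selected for poly(A) and sequenced by the study in 5 WT and 5 Arid3a cKO mice. The authors ran nf-core/rnaseq, aligning with STAR and estimating with RSEM, with the GRCm38 genome and its Ensembl genes. The authors deposited unnormalized expected counts, TPM and the effective length of every gene per library. RSEM divides reads shared by similar genes, and the strand setting is not given in the sources used here, so overlapping and antisense genes can share counts. In all, 54723 of 54838 gene IDs were matched to symbols, and the rest took 0.0193% of the counts.

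Expected counts were rounded and tested in R 4.3.3 with edgeR 4.0.16 (robust quasi-likelihood test, TMM, filterByExpr with a minimum count of 10 and a total of 15, 14719 genes, Benjamini-Hochberg threshold 0.05). CPM use TMM library sizes. TPM were compared by 2-sided exact permutation tests on log2(TPM + 0.1). At these depths the spread between animals, not counting error, limits the abundant members, and genes under 1 CPM rest on about 30 counts or fewer. The 9 genes, the lists, and the rule for named genes (the members, every listed gene and the 8 most similar genes) were chosen with earlier results of these data known. Replicate numbers did not pair the animals. Alternatives were DESeq2 1.42.0, limma 3.58.1 with voom or on log2 TPM, RLE factors, library size only, other filters, unrounded counts, an effective length offset, a replicate block, leukocyte scores and leaving out animals. After the data were seen, B cell and macrophage scores, leaving out 4 animals and ratios were added. The scripts were tested on simulated data. Paralog identity came from BLAST 2.17.0 on GENCODE transcripts. Single-cell and other libraries of the study were not analysed here. Single values of a few listed genes are not reported here; the list counts and scores include them.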

Additional observations from a re-analysis of the deposited data

Results flagged for a closer look

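Ciita in WT animal 1, at 14.6 CPM, lay farther from the other 4 WT animals than Dixon's criterion allows, since its gap to the next value took 0.758 of the group's range, above the critical value for groups of this size. It was 1 of 18 groups examined (9 genes in 2 genotypes), and chance alone picks out about 5% of such groups. WT animal 1 also had the highest WT value of H2-Aa, H2-Ab1, H2-Eb1, Cd74, H2-DMa, H2-DMb1 and Ctss and the highest pan-leukocyte sum of the 10 libraries (135 TPM). Without it, Ciita had a log2 fold change of -0.80 (SE 0.27, adjusted p = 0.0489), which is still past the threshold.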

How the results depend on the processing

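Every alternative that gave a value kept the direction of the 9 genes; H2-DMb2 had no value where 10 counts in every sample were required. The count of members called lower was 1 in the fit with genotype alone, 3 with library size only, 0 without a filter, 2 with DESeq2, 2 with limma-voom, 3 on log2(TPM + 0.1) and 3 on log2(TPM + 1), 0 with the pan-leukocyte score, 0 with the B cell score, 0 with the macrophage score and 0 without the 4 animals with most B cell transcripts. Leaving out 1 animal gave between 0 and 3, with 0 without cKO animal 1 (Ciita lost), 2 without cKO animal 2 (Cd74 and Ciita) and 3 without cKO animal 5 (H2-Aa, H2-DMb2 and Ciita). The count called higher was 1 throughout except 0 without the 4 animals. The summed H2-DMb pair, at -0.85, was past the threshold with library size only (-0.98), DESeq2 (-0.84) and limma-voom (-0.92), and when single animals were left out it ranged from -0.99 (without cKO animal 5; also past the threshold without cKO animal 4) to -0.66 (past the threshold without cKO animal 2). Library size only and TPM move the median of all genes from -0.03 to -0.16 and -0.12, and their calls are to be read against that shift. Over all genes tested, 1869 of 14719 were called lower in the fit with genotype alone and 4030 of 14719 with library size only. It was 2717 of 12527 on log2(TPM + 0.1), 2744 of 12527 on log2(TPM + 1) and 2219 of 14719 with DESeq2. With limma-voom it was 1764 of 14719, without a filter 1447 of 27960 and without cKO animal 5 1293 of 14902. Without the 4 animals it was 486 of 15259. Of the pathway lists, 3 genes were called lower, against 6 with library size only, 5 with limma-voom, 1 with the macrophage score and 0 without the 4 animals, and between 3 and 7 when 1 animal was left out (5 without WT animal 2, 7 without cKO animal 5). The 6 called higher became 3 with library size only and 3 on either TPM scale. Of the cell type lists, 7 genes were called lower, against 13 with library size only, 4 without a filter, 2 with the macrophage score, 1 without the 4 animals, and 4 to 13 when 1 animal was left out (4 without WT animal 4 or cKO animal 1, 13 without cKO animal 4). The 10 called higher became 4 without a filter, 5 with the B cell score, 2 without the 4 animals and 4 to 10 when 1 animal was left out (4 without cKO animal 5, 5 without WT animal 3, 6 without WT animal 1 or cKO animals 2 or 4). The causes were not tested.

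The replicate block changed no call of the 9 genes, with Cd74 at -1.08 (adjusted p = 0.103) and Ciita at -1.05 (adjusted p = 0.0285), and over all genes it gave 1191 lower and 1861 higher calls against 1869 and 2298. Same-numbered animals had residual correlations from -0.21 to 0.09, and 0 of 5 WT libraries correlated best with the cKO library of their number. With 5 animals a genotype the log2 fold changes of the 3 chains had SEs of 0.33 to 0.35, and differences as large as -0.86 (H2-Aa) did not pass.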

Other observations

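Jchain and Pecam1 were lower in cKO crypts, while the other plasma cell, stromal and endothelial markers did not pass the test. Jchain, the joining chain of secreted antibodies, fell by 1.95 on the log2 scale (SE 0.30, adjusted p = 0.00196), from 24.2 ± 6.31 to 6.27 ± 2.92 CPM without overlap, and was the 1 of 3 tested plasma cell genes (4 listed) that passed. WT animal 5, poor in B cell transcripts, had 494 expected counts of Jchain, and cKO animal 5, the cKO animal richest in them, had 93. Pecam1, an endothelial adhesion gene, fell by 1.19 (adjusted p = 0.00984) and was the 1 of 5 tested stromal and endothelial genes that passed.

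Genes that the epithelium raises on contact with microbes ranged widely within each genotype. None of the 6 tested of 8 listed was called, and their summed TPM ranged from 84.8 to 1149 in WT and from 172 to 1368 in cKO crypts. Of 7 epithelial markers, Vil1 (0.80) and Krt20 (1.47) rose, and Epcam, Cdh1, Krt8, Krt18 and Krt19 did not pass.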
